A study of Mus musculus with 6 samples.

Results

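The 10 genes described here prepare peptides for MHC class I: Nlrc5, the immunoproteasome genes Psmb8, Psmb9 and Psmb10, the proteasome activator genes Psme1 and Psme2, the transporter genes Tap1 and Tap2, the tapasin gene Tapbp and the trimming peptidase gene Erap1. They were taken by symbol from a count table of 54446 mouse genes, each symbol matching 1 row, and all 10 passed the filter on low counts that left 15068 genes for testing. Intestinal epithelial cells came from knockout mice carrying Prkci flox/flox and Villin-CRE (3 libraries) and from control mice carrying Prkci flox/flox without the recombinase (3 libraries). The labels number a separate animal for each library, so that p-values measure the spread between single mice. The mice were 3 to 4 months old and housed together, and cells were washed and squeezed from 10 cm segments of jejunum, or of jejunum-ileum in the series text. Prkci encodes an atypical protein kinase C of the apical polarity complex, its floxed alleles are shared by both genotypes, and the Villin promoter drives Cre in intestinal epithelium, so that other cells in a preparation keep the gene. The comparison asks what happens to the transcriptome of enterocytes, the absorptive cells of the intestine, when the kinase is deleted in them.

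Proteins degraded by the proteasome yield peptides, which the TAP transporter carries into the endoplasmic reticulum, where aminopeptidases trim them and tapasin helps to load them onto class I heavy chains bound to beta-2 microglobulin. Interferon-gamma induces the inducible catalytic subunits, which take the places of the constitutive ones in newly built proteasomes. NLRC5 has no DNA-binding domain of its own and acts on class I promoters and on those of several partner genes through a complex with RFX, CREB/ATF and NF-Y factors. In intestinal epithelium, class I presentation exposes infected or damaged cells to the lymphocytes that lie between enterocytes.

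Promoter windows of 300 bases (250 before and 50 after a gene's start) were available from RefSeq (GRCm38.p6) for 8 of the 10 genes, as 9 entries. The Tap1 and Psmb9 windows share 275 bases, because these genes run in opposite directions from 1 short interval. The start is RefSeq's. The windows of Psmb8, Psmb9, Erap1, Psme1 and Tapbp lie wholly inside the gene spans of the deposited table given below, whose outermost starts lie further upstream. Of the windows below, Tap1 is shown for the gene pair that differed most between the genotypes after Nlrc5, Psmb8 for its neighbour in the same cluster, and Erap1 and Psme1 as genes with little difference of the means. Each is written 5′ to 3′ on the gene's strand, with motif matches in capitals.
Tap1: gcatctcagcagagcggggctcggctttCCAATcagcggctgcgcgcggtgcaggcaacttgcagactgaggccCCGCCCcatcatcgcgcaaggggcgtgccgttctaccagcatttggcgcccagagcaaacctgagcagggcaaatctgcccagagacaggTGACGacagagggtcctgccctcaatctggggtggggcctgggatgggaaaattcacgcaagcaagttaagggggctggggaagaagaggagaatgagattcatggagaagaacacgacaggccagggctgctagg
Psmb8: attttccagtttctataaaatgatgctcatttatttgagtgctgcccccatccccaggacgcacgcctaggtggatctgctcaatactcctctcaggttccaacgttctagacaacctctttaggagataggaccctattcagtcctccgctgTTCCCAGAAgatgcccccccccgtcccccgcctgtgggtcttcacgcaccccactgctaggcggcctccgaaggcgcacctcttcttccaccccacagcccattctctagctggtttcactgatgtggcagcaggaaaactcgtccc
Erap1: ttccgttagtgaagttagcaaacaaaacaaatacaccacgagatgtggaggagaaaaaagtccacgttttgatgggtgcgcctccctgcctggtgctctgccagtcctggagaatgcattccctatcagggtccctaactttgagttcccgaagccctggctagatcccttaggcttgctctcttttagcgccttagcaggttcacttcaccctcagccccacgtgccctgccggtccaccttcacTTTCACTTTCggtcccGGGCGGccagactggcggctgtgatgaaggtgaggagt
Psme1: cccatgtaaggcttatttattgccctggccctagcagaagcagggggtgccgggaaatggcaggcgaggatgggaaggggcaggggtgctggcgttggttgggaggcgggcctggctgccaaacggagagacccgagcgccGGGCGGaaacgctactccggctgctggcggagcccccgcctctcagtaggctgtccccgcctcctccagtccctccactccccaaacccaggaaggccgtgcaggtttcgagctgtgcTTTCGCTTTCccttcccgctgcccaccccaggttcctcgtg
The windows lie at chr17:34187306-34187605 (plus strand), chr17:34197945-34198244 (plus strand), chr13:74639603-74639902 (plus strand) and chr14:55578244-55578543 (plus strand).

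Both strands of each window were searched for 6 motifs. The interferon-gamma activated sequence TTCNNNGAA was found in 1 gene, Psmb8, and in 8.33% of 32544 distinct mouse promoter windows of the same length. The interferon-stimulated response element was found in 2 genes, Erap1 and Psme1, and in 3.45% of windows. The Y box core CCAAT was found in Tap1, Psmb9 and Tapbp (37.4% of windows), and the X2 box core TGACG in Tap1, Psmb9 and Psme2 (20.9% of windows). The GC box GGGCGG was found in 6 genes (35.9% of windows), and the kappa B motif in 0 (8.49% of windows). For Tap1 and Psmb9, the Y box, X2 box and GC box matches are the same sites, read from opposite strands of the stretch that their windows share. In these windows, matches of different motifs did not overlap. A match describes the letters of the window and does not show that a factor binds there.

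Library totals ran from 18972906 to 26687856 counts in knockouts and from 22453798 to 23008047 in controls. Gm26917 and Gm42418, loci whose reads include ribosomal RNA sequence, took 4.89%, 5.91% and 5.43% of counts in knockouts, against 2.91%, 2.16% and 2.57% in controls. The genotypes did not overlap in that share, and its part in the results below was not tested. Levels are in CPM (counts scaled to library size), listed for replicates 1, 2 and 3 in turn. Prkci had 21.5, 14.6 and 21.4 CPM in knockouts, against 44.6, 46.9 and 44.0 CPM in controls. Knockout replicate 1 lay closer to the controls than the other knockouts did for most of the genes below, so that each result is given by library. Read by Xist and Ddx3y counts, knockout replicates 2 and 3 and control replicate 3 were female and the other 3 libraries male, which goes against the series text for 3 libraries. The male knockout is the single library knockout replicate 1, so sex and that library cannot be told apart. The epithelial markers Epcam, Krt8 and Vil1 were abundant in all libraries, Epcam at 1659.8 to 2419 CPM in knockouts and 1567 to 1799 CPM in controls.

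**Figure D1:**
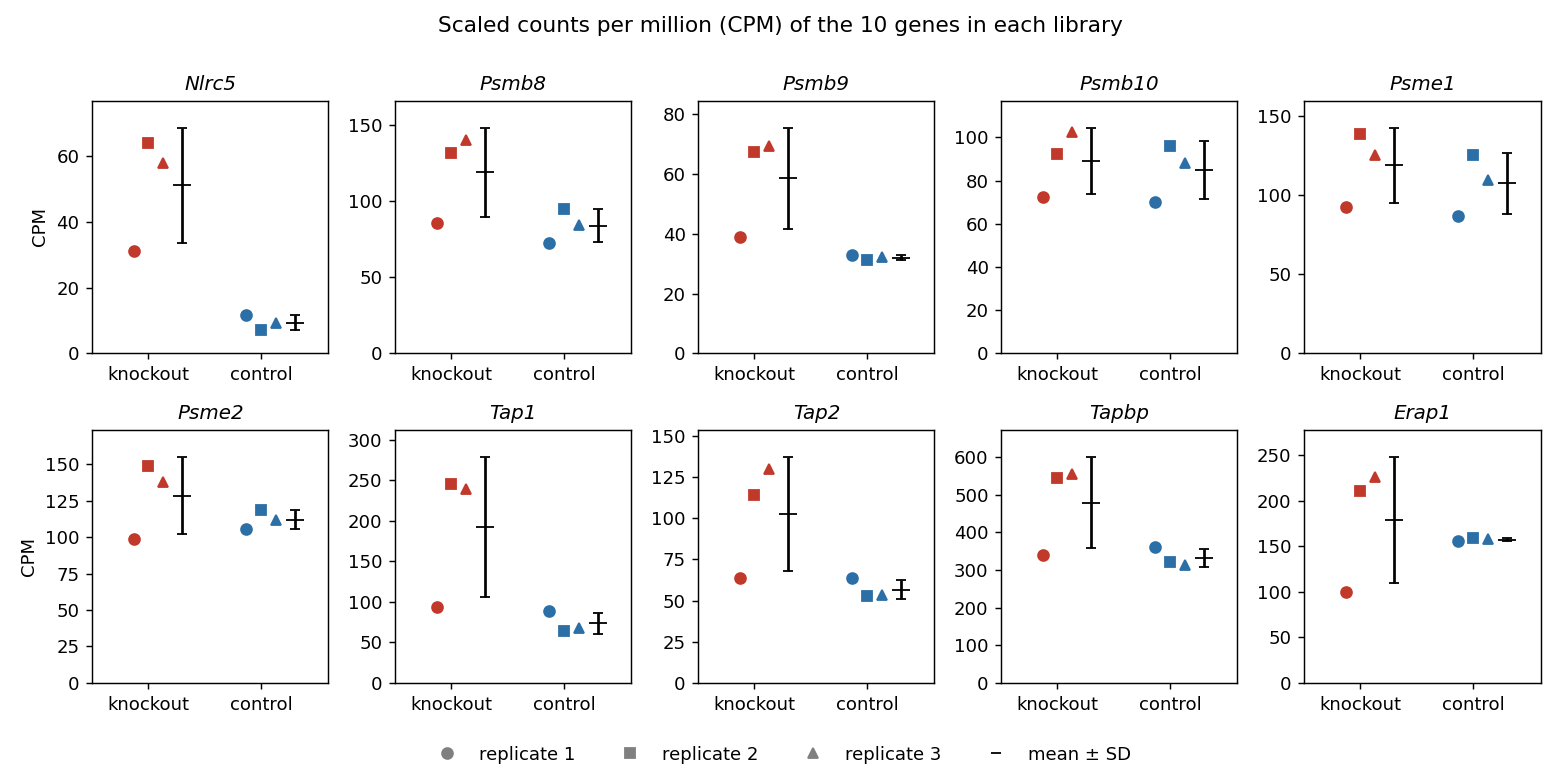
CPM of each of the 10 genes (vertical axes, starting at 0) in the knockout and control libraries, 1 point a library, with the mean and SD of 3 libraries beside them. Nlrc5, Psmb9, Tap1 and Tap2 have no overlap between the genotypes, and knockout replicate 1 (circles) is the lowest knockout for all 10 genes.

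Nlrc5 (ENSMUSG00000074151.13, mm10 chromosome 8, 94434356 to 94527272), the class I transactivator, was the gene of the set that differed most. Its levels by replicate were 31.1, 64.1 and 58.0 CPM in knockouts, against 11.7, 7.12 and 9.29 CPM in controls. All 3 knockouts lay above all controls, knockout replicate 1 between the controls and the other knockouts. Relative to the control mean, the knockout libraries stood at 3.32, 6.85 and 6.20 times. The log2 fold change was 2.45 (SE 0.31), ranked 93 from the top of 15068 genes, with an edgeR adjusted p of 0.0719, which missed the threshold of 0.05. Under the alternatives tried, the adjusted p for Nlrc5 ran from 2.45e-11 with the DESeq2 Wald test to 0.399 without control replicate 2. In bulk RNA such as this, more cells of a type and more RNA per cell cannot be told apart. The log2 difference was 1.77 among the male libraries (1 knockout, 2 controls) and 2.71 among the female ones (2 knockouts, 1 control). Nlrc5 shares 78 exon bases with 9330175E14Rik on the opposite strand, which had 127 counts in all knockouts and 33 in all controls.

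The immunoproteasome has 3 inducible catalytic subunits, of which 0 passed edgeR over all genes. Psmb9 (ENSMUSG00000096727.2, chromosome 17, 34181988 to 34187764), which encodes LMP2, had 39.0, 67.2 and 69.4 CPM in knockouts, against 32.9, 31.1 and 32.1 CPM in controls. The controls spanned a narrow range and all knockouts lay above it, knockout replicate 1 by the least. Its log2 fold change was 0.87 (SE 0.22, edgeR adjusted p = 0.148).

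Psmb8 (ENSMUSG00000024338.14, chromosome 17, 34197721 to 34201454), which encodes LMP7, had 85.5, 132 and 140.0 CPM in knockouts, against 72.8, 94.6 and 84.2 CPM in controls. Here knockout replicate 1 lay inside the control range and the other knockouts stood above it. The log2 fold change was 0.51 (SE 0.20, edgeR adjusted p = 0.277). Psmb10 (ENSMUSG00000031897.9, chromosome 8, 105935735 to 105938444), which encodes MECL-1, had 72.3, 92.3 and 103 CPM in knockouts, against 70.2, 96.1 and 88.1 CPM in controls. The genotypes overlapped, with a log2 fold change of 0.07 (SE 0.17, edgeR adjusted p = 0.859) that turned negative in 4 of 16 alternatives.

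The PA28 activator is a ring that opens the proteasome core and is built from the products of Psme1 (ENSMUSG00000022216.17, chromosome 14, 55578123 to 55581529) and Psme2 (ENSMUSG00000079197.10, chromosome 14, 55587441 to 55591113). Psme1 had 92.8, 139 and 125 CPM in knockouts, against 87.2, 126 and 109.6 CPM in controls. Psme2 had 98.4, 149 and 138 CPM in knockouts, against 106, 119 and 111 CPM in controls. For Psme2 knockout replicate 1 was the lowest of all 6 libraries and the other knockouts the highest. The log2 fold changes were 0.15 (SE 0.19, edgeR adjusted p = 0.718) for Psme1 and 0.20 (SE 0.16, edgeR adjusted p = 0.568) for Psme2.

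The TAP transporter is a heterodimer of the Tap1 and Tap2 products. Tap1 (ENSMUSG00000037321.17, chromosome 17, 34187553 to 34197225) had 93.1, 245 and 239 CPM in knockouts, against 88.4, 64.3 and 67.5 CPM in controls. Knockout replicate 1 was barely above control replicate 1, and the other knockouts stood far above both. The log2 fold change was 1.39 (SE 0.36, edgeR adjusted p = 0.157). Tap2 (ENSMUSG00000024339.12, chromosome 17, 34203527 to 34216321) had 63.8, 114 and 129.9 CPM in knockouts, against 63.5, 52.9 and 53.5 CPM in controls, with a log2 fold change of 0.86 (SE 0.25, edgeR adjusted p = 0.187). Its knockout replicate 1 and control replicate 1 were almost equal, so the lack of overlap there rests on a difference far smaller than the spread between controls. Tap1 and Psmb9 share 212 exon bases on opposite strands (the shared promoter window is shown above), and no source used here gives the strand setting of the counting, which leaves reads of that stretch without a sure gene.

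Tapasin bridges TAP and the heavy chain and favours the loading of tightly bound peptides. Its gene Tapbp (ENSMUSG00000024308.14, chromosome 17, 33915899 to 33929288) had 340.5, 544 and 555 CPM in knockouts, against 361, 321 and 315 CPM in controls. Knockout replicate 1 lay within the control range and the other knockouts above it, and the log2 fold change was 0.53 (SE 0.20, edgeR adjusted p = 0.262). Tapbp shares 149 exon bases with Zbtb22 on the same strand, which averaged 28.2 CPM in knockouts and 28.1 CPM in controls.

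ERAP1 trims peptides to the length that class I holds. Erap1 (ENSMUSG00000021583.7, chromosome 13, 74639568 to 74693201) had 99.9, 210.5 and 227 CPM in knockouts, against 156, 159 and 158 CPM in controls. The controls were nearly identical, and the knockouts lay on both sides of them, knockout replicate 1 at 0.634 of the control mean and the others at 1.34 and 1.44 times. The log2 fold change of 0.19 (SE 0.28, edgeR adjusted p = 0.765) therefore averages libraries that went opposite ways. Erap1 shares 834 exon bases with Cast on the opposite strand, a gene at 293 to 329 CPM in knockouts and 244 to 299 CPM in controls.

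**Figure D2:**
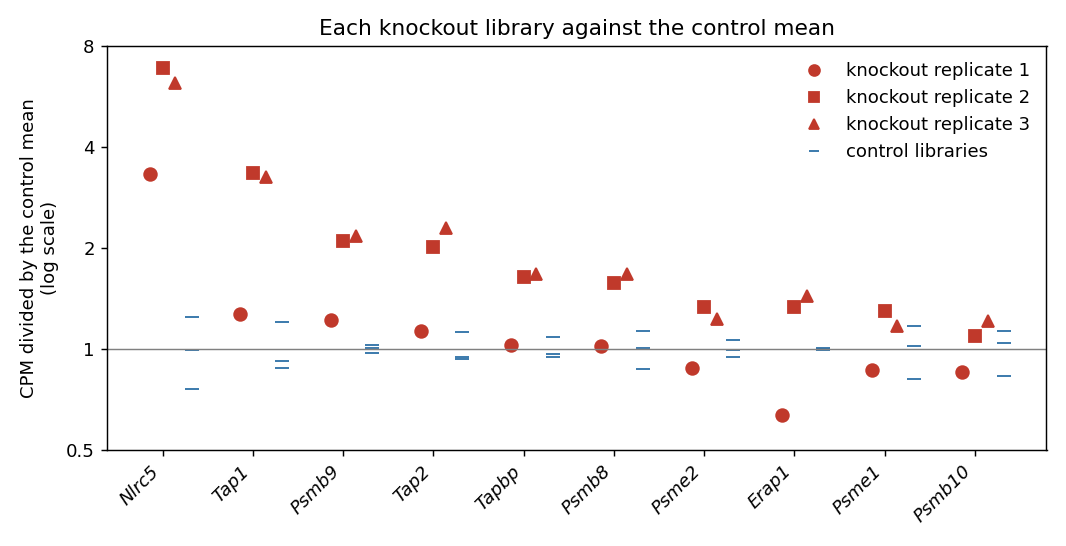
CPM of each knockout library divided by the control mean of the same gene (vertical axis, log scale), with genes ordered by log2 fold change and the control libraries as dashes. Nlrc5 is the gene for which knockout replicate 1 stands far above the controls, at 3.32 times their mean, and for Erap1 that library is at 0.634.

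Over the 10 genes, all log2 fold changes were positive, with a median of 0.52, against 0.01 over all 15068 genes tested. By edgeR over all genes tested, 0 of the 10 passed, where 0.0531% of all genes passed as higher. At an unadjusted edgeR p under 0.05, 6 of 10 were higher (Nlrc5, Psmb9, Tap1, Tap2, Tapbp and Psmb8), against 9.32% of all genes. With sex read from Xist in the model, 4 of 10 were, without Tapbp and Psmb8. Genes with such a p in either direction then numbered 2001 of 15068, against 2473 without sex. By the DESeq2 Wald test, 4 passed as higher (Nlrc5, Psmb9, Tap1 and Tap2), against 3.6% of all genes. The same 4 genes had every knockout above every control, as did 10.0% of all genes. Without knockout replicate 1, edgeR called 8 of 10 higher, all but Psmb10 and Psme1, where 10.0% of the genes then tested passed as higher. Both knockout replicates 2 and 3 exceeded every control for 8 of the 10 genes, and 25.7% of all genes had that order.

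Per kilobase of annotated exon, levels in control libraries ran from Tapbp (91.6 ± 6.90 CPM per kilobase, SD, n = 3) through Psme2 (63.5 ± 3.68), Psmb10 (49.7 ± 7.79), Psme1 (48.6 ± 8.75), Psmb8 (24.8 ± 3.23), Erap1 (21.6 ± 0.204), Tap2 (15.0 ± 1.58), Tap1 (13.4 ± 2.39) and Psmb9 (8.75 ± 0.238) to Nlrc5 (1.10 ± 0.267). In that order, the control ranges of neighbours overlapped for Psmb10 and Psme1, for Psmb8 and Erap1, and for Tap2 and Tap1. In knockout libraries Tapbp stayed highest at 132 ± 33.3 CPM per kilobase and Nlrc5 lowest at 6.01 ± 2.07 (SD, n = 3 each). Tap1, at 35.1 ± 15.7 CPM per kilobase in knockouts, stood sixth there, against eighth in controls. The exon lengths of Psmb8, Psmb9 and Tapbp come from another version of these genes than that of the deposited table.

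Within a library, the ratio of an inducible subunit's counts to those of the constitutive subunit it replaces does not depend on library scaling. Psmb9 to Psmb6 was 1.09, 1.19 and 1.43 in knockout replicates 1 to 3, against 0.794, 0.618 and 0.682 in controls. All 3 knockouts lay above all controls, with a ratio of geometric means of 1.77 (exact two-sided permutation p = 0.1, the smallest that 3 against 3 allows, and 0.2 adjusted over 4 ratios). Psmb8 to Psmb5 was 16.9, 16.8 and 18.9 in knockouts, against 13.9, 13.6 and 13.1 in controls. Here too the genotypes were separated, with a ratio of geometric means of 1.29 (exact permutation p = 0.1, adjusted 0.2), although Psmb8 in CPM overlapped between them. Psmb5 itself had few reads, 100 to 185 counts in knockouts and 119 to 167 in controls.

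Psmb10 to Psmb7 was 2.19, 1.85 and 2.16 in knockouts, against 1.87, 2.11 and 2.21 in controls. These values were intermixed and the ratio of geometric means was 0.999 (exact permutation p = 1). The summed counts of Psme1 and Psme2 over those of Psme3, whose product forms the PA28 gamma ring of the nucleus, were 2.65, 3.77 and 3.70 in knockouts, against 2.68, 2.82 and 2.75 in controls. Knockout replicate 1 was the lowest library and the others the highest (exact permutation p = 0.4, adjusted 0.533).

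**Figure D3:**
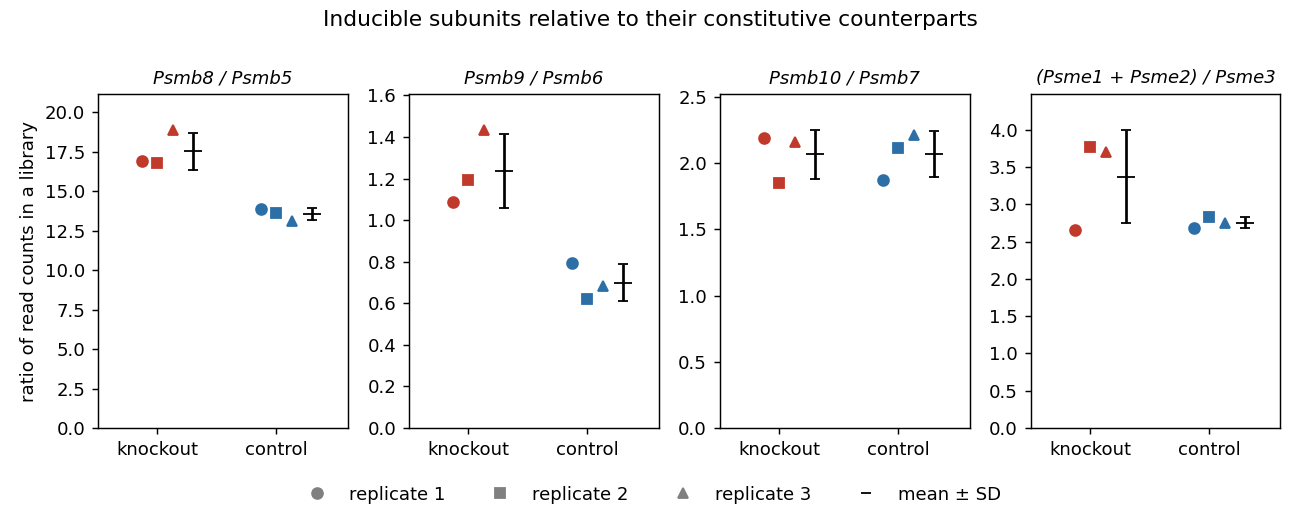
Ratio of read counts within each library (vertical axes, starting at 0) for 3 inducible subunits over the constitutive subunit each replaces and for Psme1 and Psme2 over Psme3, with the mean and SD of 3 libraries. The knockouts stand above the controls for Psmb8 to Psmb5 and Psmb9 to Psmb6, and the genotypes intermix for Psmb10 to Psmb7.

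Other proteasome genes were compared in 4 lists. Of 3 constitutive catalytic subunits, 11 other core subunits, 18 subunits of the 19S regulator and 11 assembly factors and other activators, 0 passed by DESeq2. Over all 15068 genes, DESeq2 passed 542 as higher and 294 as lower, a small share, so that few passes would fall in lists of this size. An unadjusted edgeR p under 0.05, found for 2473 of all 15068 genes, was found for 0 genes of these lists. Their median log2 fold changes were 0.09, 0.07, 0.11 and 0.02, and the highest single value was 0.36, for the assembly factor gene Psmg3, against 0.07 for Psmb10, 0.15 for Psme1 and 0.20 for Psme2. The most abundant gene of each list is given next. In the core, Psmb4 had 54.9, 85.4 and 75.4 CPM in knockouts, against 61.5, 77.0 and 71.4 CPM in controls. In the 19S regulator, Psmd2 had 79.3, 132 and 115 CPM in knockouts, against 89.1, 96.0 and 84.0 CPM in controls. The genotypes overlapped for both, and also for Psme4, which encodes the activator PA200. Psme4 had 137, 191 and 169 CPM in knockouts, against 146, 152 and 154 CPM in controls. Psmb6 had 35.9, 56.2 and 48.4 CPM in knockouts, against 41.4, 50.3 and 47.1 CPM in controls. Psmb7 had 33.0, 49.8 and 47.6 CPM in knockouts, against 37.4, 45.5 and 39.8 CPM in controls. For both, as for Psmb10 and Psme1, replicate 1 was the lowest library of each genotype.

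Among 16 tested genes of class I chains and related molecules, 11 were higher at an unadjusted edgeR p under 0.05 (9.32% of all genes). By DESeq2, 7 passed as higher (3.6% of all genes), and 0 passed by edgeR over all genes. The median log2 fold change was 0.69. The lowest p-values belonged to H2-Q7 and H2-Q6, heavy chains of the Qa region. H2-Q7 had 14.2, 33.0 and 29.7 CPM in knockouts, against 6.25, 4.79 and 4.90 CPM in controls, a log2 fold change of 2.27 (SE 0.32, edgeR adjusted p = 0.0720). H2-Q6 had 14.8, 23.2 and 20.2 CPM in knockouts, against 6.86, 3.75 and 3.35 CPM in controls. As for Nlrc5, knockout replicate 1 lay between the controls and the other knockouts. H2-K1, a classical heavy chain, had 1319, 2169 and 2095 CPM in knockouts, against 1231, 982 and 1005 CPM in controls. H2-D1 had 758, 1423 and 1143 CPM in knockouts, against 682, 561 and 545 CPM in controls. B2m, the light chain, overlapped between the genotypes, at 1246, 2181 and 2054 CPM in knockouts, against 1379.7, 1153 and 1146 CPM in controls. Heavy-chain genes are close copies of each other, which makes the values of single heavy chains uncertain.

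Of 23 upstream genes, of interferon signalling and of the complex that NLRC5 joins, 0 passed by edgeR over all genes. At an unadjusted edgeR p under 0.05, 6 were higher (9.32% of all genes), and 5 passed as higher by DESeq2 (3.6% of all genes), with a median log2 fold change of 0.08. Irf1, an interferon-induced activator of several class I pathway promoters, had 220.0, 314 and 294 CPM in knockouts, against 169, 164 and 154 CPM in controls, a log2 fold change of 0.76 (SE 0.15, edgeR adjusted p = 0.115). Ciita, the class II counterpart of Nlrc5, had 85.3, 79.7 and 83.5 CPM in knockouts, against 61.6, 50.5 and 41.7 CPM in controls. Unlike for Nlrc5, knockout replicate 1 was the highest library for Ciita. Ifngr2, a chain of the interferon-gamma receptor and the most abundant gene of this list, had 319.7, 229 and 213 CPM in knockouts, against 315, 339 and 315 CPM in controls. Of the factors that NLRC5 needs, Rfx5 had 11.9, 13.9 and 14.7 CPM in knockouts, against 10.3, 11.04 and 10.3 CPM in controls, and the genotypes overlapped for Rfxap, Rfxank, Nfya, Nfyb, Nfyc and Creb1. Atf1, of the CREB/ATF family, had 19.02, 12.9 and 14.5 CPM in knockouts, all below the 19.05, 21.7 and 19.5 CPM of the controls (log2 fold change -0.38, SE 0.17, edgeR adjusted p = 0.329).

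Several chaperones and peptidases that act beside the 10 genes had the order of libraries seen for Erap1. Of 13 genes, 2 were higher (9.32% of all genes) and 1 lower at an unadjusted edgeR p under 0.05. By edgeR over all genes or by DESeq2, 0 passed, where DESeq2 passed 542 of all 15068 genes as higher and 294 as lower. Knockout replicate 1 lay below and the other knockouts above every control for 6 of the 13 (Pdia3, Lap3, Calr, Hsp90b1, Canx and Blmh) and for 2 of the 10 genes (Psme2 and Erap1). Over all genes, 7.85% had that order. Calr, which encodes the lectin chaperone calreticulin of the loading complex, had 488, 1488 and 1286 CPM in knockouts, against 692, 545 and 636 CPM in controls. Hspa5, the general chaperone of the endoplasmic reticulum, had 400.0, 1462 and 1285 CPM in knockouts, against 523, 373 and 504 CPM in controls. Lnpep, which encodes an endosomal trimming peptidase, had 208, 207 and 198 CPM in knockouts, all below the 259.8, 241 and 233 CPM of the controls.

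**Figure D4:**
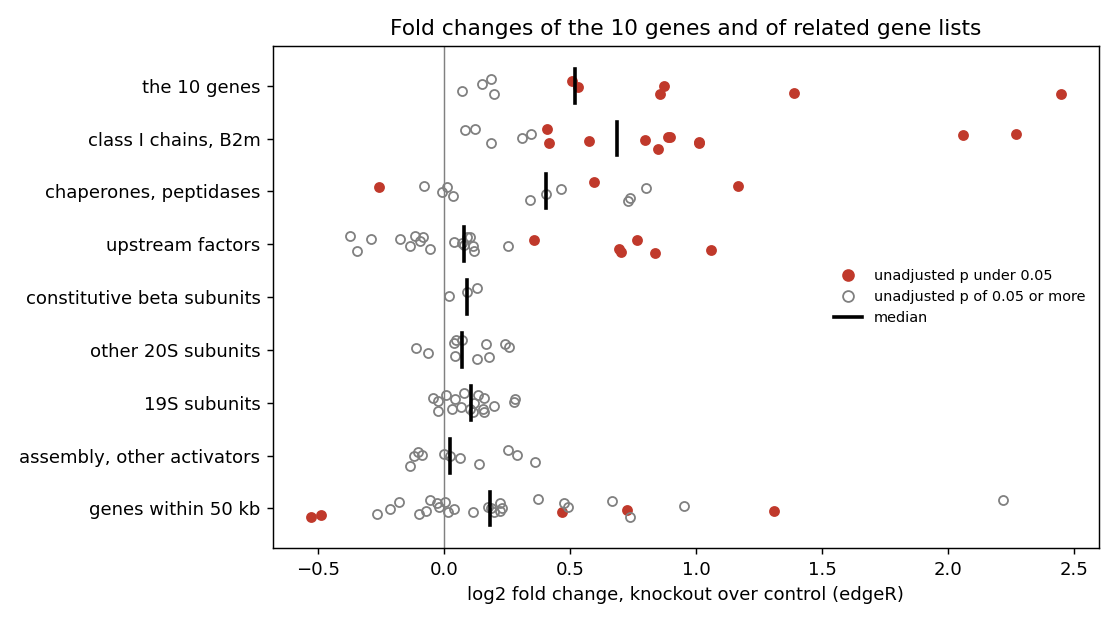
Log2 fold change of knockout over control (horizontal axis) for the 10 genes, for related gene lists and for protein-coding genes within 50 kb of any of the 10, with filled points for an unadjusted edgeR p under 0.05 and a bar at each median. The proteasome lists hold no filled point and have medians between 0.02 and 0.11, against 0.52 for the 10 genes.

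Genes next to the 10 were compared in the same way. Of 40 other symbols within 50 kb that the deposited table types as protein-coding, 30 were tested. At an unadjusted edgeR p under 0.05, 3 were higher, about the share of all genes (9.32%), and 2 were lower. In either direction, 2473 of the 15068 genes tested had such a p. By edgeR over all genes, 0 neighbours passed, and their median log2 fold change was 0.18. By DESeq2, 1 of the 30 passed, Cpne2, as lower, where 294 of all genes passed as lower. Cpne2, which begins 5718 bases beyond Nlrc5, had 29.2, 22.4 and 22.9 CPM in knockouts, all below the 33.3, 35.9 and 35.2 CPM of the controls, the reverse of its neighbour. Slc12a4, near Psmb10, was barely detected, at 0.759, 1.00 and 0.481 CPM in knockouts, against 0.308, 0.208 and 0.377 CPM in controls. H2-Ab1, a class II chain gene near Tap2, had 527, 760.3 and 866 CPM in knockouts, against 531, 449.9 and 323 CPM in controls. Irf9, near Psme1 and Psme2, had 42.6, 31.3 and 33.2 CPM in knockouts, against 40.3, 32.2 and 39.0 CPM in controls.

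Across the 6 libraries, the genes whose log2 CPM followed Nlrc5 most closely, of 9305 protein-coding genes at a mean of 5 CPM or more, were Bach1, H2-Q7, Unc13d, Gbp2 and Uba7, with Pearson r from 0.992 to 0.996. Among the other 9 genes, r to Nlrc5 was 0.943 for Psmb9, 0.935 for Tap1, 0.912 for Tap2, 0.881 for Tapbp and 0.773 for Psmb8. Counting Nlrc5 itself as rank 1, these genes ranked 154, 179, 301, 463 and 1108 by r, so many other genes followed Nlrc5 as closely. The value of r was 0.591 for Psme2 (rank 2117), 0.369 for Erap1 (rank 3166), 0.365 for Psme1 (rank 3183) and 0.230 for Psmb10 (rank 3682). These values describe 6 libraries that differ in genotype and depth, and no test was made of them.

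Lymphocytes also express the immunoproteasome, and markers of other cell types were therefore measured in the same libraries. By edgeR over all genes, 0 markers passed in any of the cell type lists, and the counts at an unadjusted p under 0.05 stand against 9.32% of all genes as higher. By DESeq2, 5 of 18 T cell, 3 of 12 macrophage and 1 of 9 B cell markers passed as higher (3.6% of all genes). So did 4 of 10 fibroblast, 1 of 3 endothelial, 0 of 8 epithelial and 0 of 10 enterocyte markers. In the same order of lists, median log2 fold changes were 0.98, 1.22, 1.01, 2.14, 1.32, 0.13 and 0.21, against 0.52 for the 10 genes. The summed level of 18 markers of T cells and intraepithelial lymphocytes was 439.6, 1035 and 539.9 CPM in knockouts, against 380.1, 255 and 217 CPM in controls, and 13 of the 18 were higher at an unadjusted edgeR p under 0.05. Cd3e, of the T cell receptor complex, had 20.8, 42.2 and 22.03 CPM in knockouts, against 19.9, 15.2 and 10.5 CPM in controls, and the co-receptor gene Cd8a had 31.2, 54.5 and 36.0 CPM in knockouts, against 25.4, 19.8 and 15.3 CPM in controls. Ptprc, found on all leukocytes, had 98.9, 79.2 and 65.0 CPM in knockouts, against 76.7, 55.6 and 55.4 CPM in controls. None of the 18 markers was at 0 counts in a library. The part of lymphocytes in these results was not tested.

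Macrophage and dendritic cell markers summed to 214, 238 and 179 CPM in knockouts, against 186, 131 and 173 CPM in controls. Most of each sum was Mertk, which overlapped between the genotypes. Mertk had 162, 206 and 146 CPM in knockouts, against 171, 115 and 154 CPM in controls. Of 12 tested markers, 6 were higher at an unadjusted edgeR p under 0.05. Every knockout lay above every control for 6 of the 12, against 10.0% of all genes. Csf1r had 6.93, 2.53 and 3.96 CPM in knockouts, against 0.572, 1.17 and 2.43 CPM in controls. B and plasma cell markers summed to 511, 357 and 520.0 CPM in knockouts, against 183, 197 and 293 CPM in controls, with 3 of 9 higher. Most of each sum was Xbp1 and Igha together. Xbp1 overlapped between the genotypes, and Igha had 234, 125 and 271 CPM in knockouts, against 14.3, 44.2 and 103 CPM in controls. Every knockout lay above every control for 2 of the 9, Igha and Mzb1 (10.0% of all genes). Cd79a had 6.37, 1.61 and 2.08 CPM in knockouts, against 1.98, 2.38 and 1.51 CPM in controls. By these sums the knockouts shared no order across the lists, while Csf1r and Cd79a were each highest in knockout replicate 1. Fibroblast and smooth muscle markers summed to 78.0, 13.8 and 79.9 CPM in knockouts, against 6.73, 8.46 and 20.5 CPM in controls, with 5 of 10 tested markers higher. Col1a1, a collagen chain, had 7.54, 0.697 and 3.20 CPM in knockouts, against 0.484, 0.292 and 1.93 CPM in controls. Endothelial markers summed to 12.4, 4.49 and 6.29 CPM in knockouts, against 2.77, 2.58 and 3.43 CPM in controls. Markers of epithelium and of enterocytes had 1 of 8 and 1 of 10 higher, and 0 of 8 and 1 of 10 lower, by the same measure. Epithelial markers summed to 11272, 12818 and 12576.5 CPM in knockouts, all above the 10694, 10301 and 10460 CPM of the controls. Enterocyte markers summed to 40034, 59607 and 50587 CPM in knockouts, against 47802, 40359 and 41039 CPM in controls. For enterocytes, knockout replicate 1 lay slightly below every control and the other knockouts above. Among the knockouts, replicate 2 had the highest T cell, macrophage, epithelial and enterocyte sums and the lowest fibroblast, B cell and endothelial sums. Its macrophage sum was mostly Mertk, which was itself highest there. The part of these cells in the results was not tested.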

How the data were processed

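Poly-A RNA of intestinal epithelial cells was sequenced from 3 knockout and 3 control mice, and the labels also name a ribosomal RNA depletion kit. The authors deposited 1 table of raw read counts per gene. The submitters' processing notes name bcl2fastq 2.17, FastQC, Trim Galore, STAR 2.5.0a and mm10, and no source used here gives the counting program, its annotation or its strand setting. Coordinates are those of the deposited table. Exon lengths were taken from GENCODE M21, whose versioned IDs and coordinates matched 97.8% of genes.

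Counts were filtered with filterByExpr (minimum count 10), scaled by TMM and tested with edgeR 4.0.16 quasi-likelihood (R 4.3.3) on genotype, with Benjamini-Hochberg adjustment over 15068 genes and a threshold of 0.05. CPM are counts divided by the TMM-scaled library size (scale 1e+06). DESeq2 1.42.0 and limma 3.58.1 were alternatives, and ratios were tested by exact permutation in R. The code was tested on simulated data. Replicate numbers come from the titles, with nothing saying what they mark. Deviations from group means correlated at r = 0.117, 0.119 and 0.149 for same numbers and from -0.143 to 0.00929 for other pairs, so a replicate block was tried.

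The members and lists were chosen with earlier results of these data known. Named besides the 10 genes were Prkci, Psmb5, Psmb6, Psmb7, Psme3, H2-K1, H2-D1, B2m, Irf1, Ciita, the up to 2 lowest unadjusted p-values under 0.05 and the most abundant gene of each pathway list and of the neighbours, the 5 genes most like Nlrc5, and defining cell markers. Rfx5, Rfxap, Rfxank, Nfya, Nfyb, Nfyc, Creb1, Atf1, Psmg3, Gm26917, Gm42418, Irf9, Krt8, Vil1, Gzma, Gzmb, Xbp1, Igha, Mzb1 and the genes counted with Erap1's order were named after their values were seen. A gene that the rule names is not reported here.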

Additional observations from a re-analysis of the deposited data

Results flagged for a closer look

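With sex read from Xist and Ddx3y counts, the knockout-minus-control difference of log2 CPM had opposite signs in male libraries (1 knockout, 2 controls) and female libraries (2 knockouts, 1 control) for 4 of the 10 genes, Psme2, Erap1, Psmb10 and Psme1. For Psme2 it was -0.19 in male and 0.36 in female libraries. For Erap1 it was -0.66 in male and 0.47 in female libraries. For Psme2 and Erap1, every knockout lay on the stated side of every control of its sex. The libraries were not separated in this way for Psmb10 (-0.18 in male and 0.14 in female libraries) and Psme1 (-0.17 in male and 0.27 in female libraries). The difference between the sexes was not tested, and because the male knockout is knockout replicate 1 alone, sex and that library cannot be told apart.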

How the results depend on the processing

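Of 160 fold changes (10 genes under 16 alternatives), 140 kept direction and side of the threshold, 14 came to pass it and 6 reversed, the cause of which was not tested. The log2 fold change of Psmb10 was -0.053 with library totals and -0.027 with sex from Xist, and ran from -0.027 (without control replicate 1) to 0.20 (without knockout replicate 1) on leaving out 1 library, with -0.025 without knockout replicate 3. That of Erap1 was -0.090 with sex from Xist, and ran from -0.000644 (without knockout replicate 3) to 0.47 (without knockout replicate 1). Of the 16 alternatives, sex from Xist also gave the lowest log2 fold changes of Nlrc5 (2.22), Tap1 (1.06), Psmb9 (0.69), Tap2 (0.66), Tapbp (0.40) and Psmb8 (0.36). Of the 10 genes, edgeR called 1 higher (Nlrc5) with library totals, which set the median of all genes at -0.10 on the log2 scale, and 1 (Nlrc5) with no filter. DESeq2 called 4. Leaving out 1 library gave 0 to 8, the 8 without knockout replicate 1. Over all genes, 8 passed as higher and 1 as lower. These counts were 11 and 5 with library totals, 196 and 88 with no filter, 542 and 294 by DESeq2, 4 and 1 by limma-voom, 4 and 0 with sex from the series text, and 8 and 3 with sex from Xist. With the replicate block, edgeR called 0 and 0 over all genes, and 0 of the 10, where 2500 genes had an unadjusted p under 0.05 and DESeq2 without the block called 542 higher. Leave-one-out counts ran from 0 to 1549 higher and 0 to 1151 lower, both highest without knockout replicate 1. The log2 difference of the Psmb10 to Psmb7 ratio ran from -0.070 to 0.076 on leaving out 1 library, that of Psmb9 to Psmb6 from 0.71 to 0.92, and that of Psmb8 to Psmb5 from 0.31 to 0.40. With the replicate block, the exact sign-flip p was 0.25 for Psmb8 to Psmb5 and Psmb9 to Psmb6, the smallest that 3 pairs allow. Counting error limits Psmb5, the gene with the fewest reads among the ratios.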
